A study of Homo sapiens with 2 samples.

Results

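Cyclins, cyclin-dependent kinases (CDKs) and E2F transcription factors, which form the engine that moves cells from G1 into DNA replication and on to mitosis, were followed in A549 cells cultured for 4 h without or with mechanical stretch. A549 is an established human lung adenocarcinoma line. The genes were chosen by symbol alone: the cyclins, CDKs other than CDK1, CDK-like kinases, genes named for CDK inhibitors, the CDC25 phosphatases, E2F factors with their TFDP partners, and the retinoblastoma family. The choice gave 71 genes of the 14884 genes with a named probe set. Both groups were A549 cells, the static group without stretch and the stretch group with it. Each was represented by 1 array, so no value below has a replicate, no test between the conditions is possible and each difference compares 2 arrays. In the stretched sample's title, 2 digits of the line's name are swapped, but the source name reads A549. How strongly, how fast and on what device cells were stretched, and how many cultures each RNA came from, is not given in the sources used here.

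In G1, mitogens raise D-type cyclins, which pair with CDK4 or CDK6 and phosphorylate the retinoblastoma protein RB1. Phosphorylated RB1 releases the activator E2F factors, which transcribe genes for E-type cyclins and for DNA replication. Cyclin E with CDK2 then completes S phase entry, while cyclins A and B act later, towards mitosis. CDC25 phosphatases remove inhibitory phosphates from CDKs, and INK4 and CIP/KIP proteins inhibit them. A second branch of the family, which includes cyclins C, H, K, L and T, acts mainly in transcription and RNA processing, and cyclin H with CDK7 also activates the CDKs of the division cycle. A549 cells are known for a homozygous loss of CDKN2A, the gene of the INK4 inhibitor p16.

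Signals are RMA values on the log2 scale, in which a difference of 1 is 2-fold and one of 0.585 is 1.5-fold. A difference is the stretched minus the static value throughout. Levels on an array depend on the probe set, so levels are compared between arrays and not between genes. A gene was counted only if it reached 2.52, the overall median signal, on at least 1 of the arrays (the level filter). The 95th percentile of the 48 values of 24 measured genes of unrelated tissues was 4.31 (45 values at or below it), and a signal up to that bound is called within the background range. Array signals ran from 0.61 to 12.7 (static) and from 0.60 to 12.6 (stretch). Of 5 epithelial marker genes measured by name, 4 lay above the background bound on both arrays, with KRT18 at 10.29 and 11.0, while KRT19 lay within the range at 3.77 and 3.78. Of 4 leukocyte markers, CD14 (5.13 and 5.53) and CD68 (7.51 and 8.58) lay above the bound and LYZ and CSF1R within the range on both arrays. All 5 endothelial and both fibroblast markers measured by name lay within it on each array. The summed log2 signal went from 29.4 to 32.5 for the epithelial, from 17.8 to 19.2 for the leukocyte, from 11.7 to 11.1 for the endothelial and from 3.74 to 3.23 for the fibroblast markers. The part of such cells in the differences was not tested.

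Read as 1 family, these genes were past 1.5-fold about as often as other genes on the arrays, and the differences ran in both directions. Of the 71 genes, 63 passed the level filter. Of the 63, 21 (33.3%) were at least 1.5-fold higher on the stretched array, where 27.7% of all 10981 named genes past the filter were. At least 1.5-fold lower were 4 (6.35%), against 8.90% of all genes. At 2-fold, 10 were higher (15.9%, against 12.3% of all genes) and 2 lower (3.17%, against 2.50%). Among the genes above the background bound on both arrays the share higher was 33.3% for both, 15 of 45 here and 33.3% of 5184 named genes. The median difference of the 63 was 0.32, with an interquartile range from 0.02 to 0.74. All named genes past the filter had a median of 0.20 and an interquartile range from -0.17 to 0.65.

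The size and sign of a small difference depended on how the arrays were set against each other, which the sources used here do not state. Relative to the values as deposited, quantile normalization lowered the median of the 10981 named genes past the filter by 0.21, a loess curve on level lowered it by 0.16, and centring on 13 reference genes lowered every difference by 0.53. A difference between 0 and 0.53 therefore has the opposite sign when the arrays are centred on the reference genes. The median of the 63 genes stood at 0.035 after quantile normalization, at 0.014 after loess and at -0.21 after reference centring. That of all named genes past the filter stood at -0.01, 0.04 and -0.33. Of the 21 higher genes, all kept a positive difference under every scaling tried and 8 stayed past 1.5-fold under each: CDK6, CDK5RAP1, CCNF, CDK10, CCND1, CDC25A, CDK5RAP3 and CCND3. The static values of CCNF, CDK10, CDC25A and CCND3 lay in the background range, a limit that a change of scaling does not address. Of the 4 lower genes, CCNL1 and CCNG1 stayed past 1.5-fold under each. CCNG2 did too, but it lay in the background range on each array and passed the filter only through its static value. CDK5 stood at -0.51 after centring on the array medians.

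**Figure D1:**
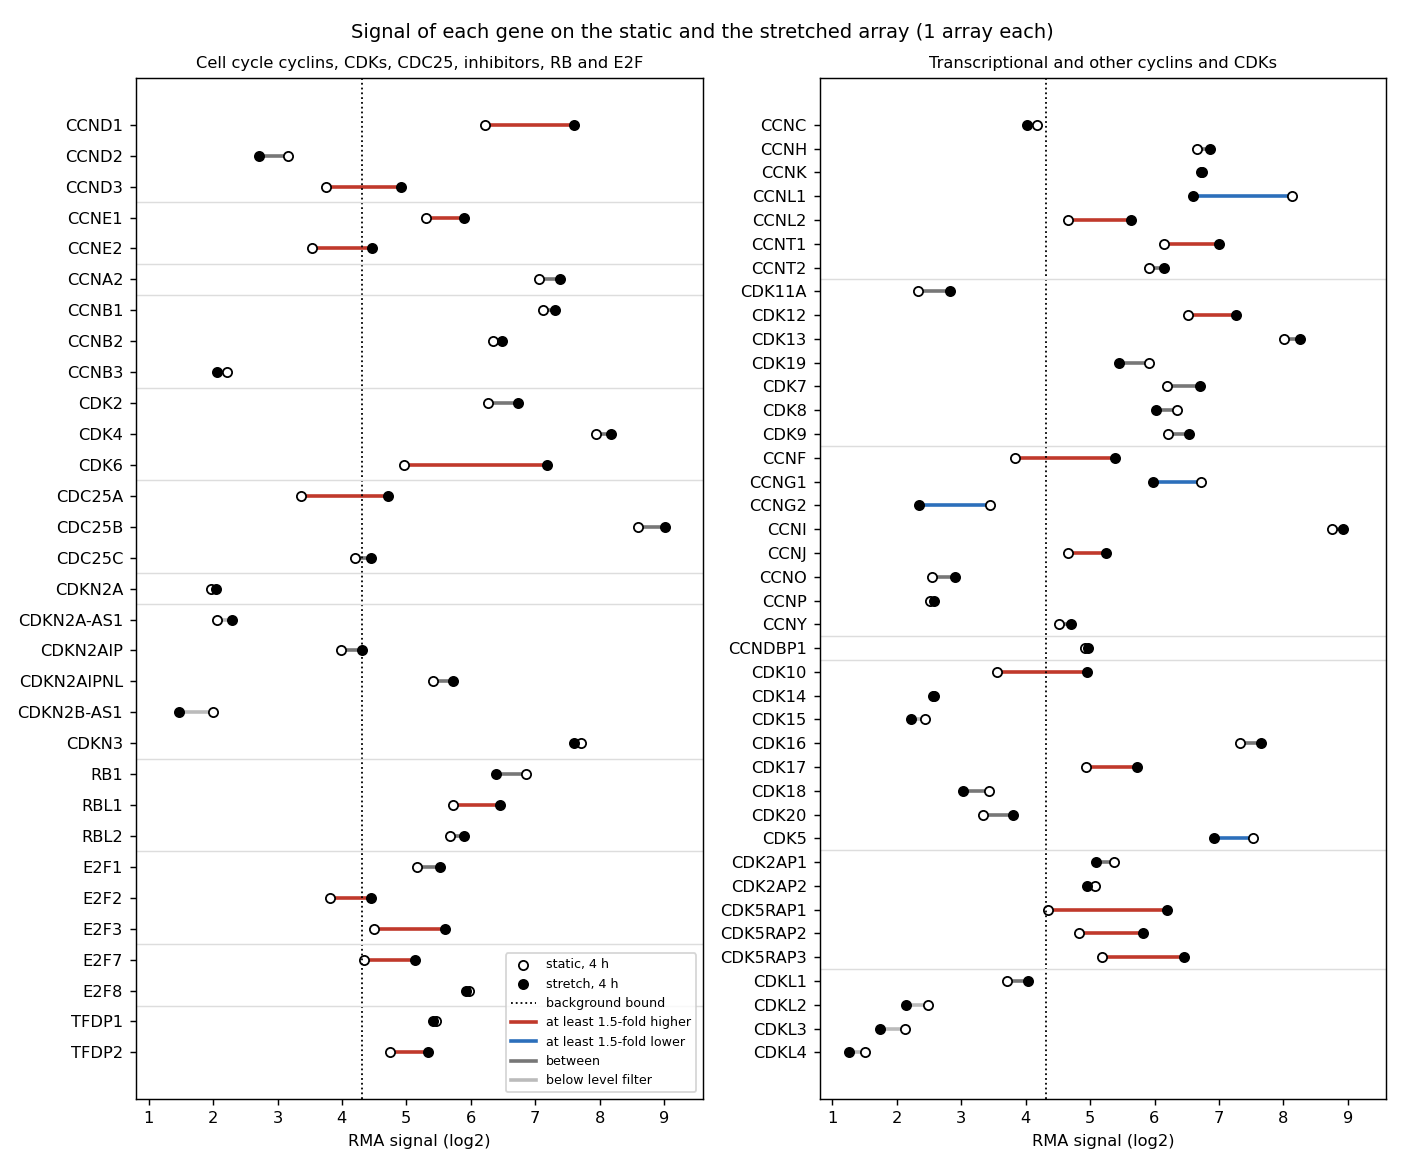
RMA signal (log2, x axis) of each of the 71 genes on the static array (open circles) and the stretched array (filled circles), grouped by role, with lines coloured by the size of the difference; the dotted line is the background bound at 4.31. CDK6 shows the longest line to the right (4.97 to 7.19) and CCNL1 the longest to the left (8.13 to 6.60), and each point is 1 array.

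D-type cyclins, the G1 partners of CDK4 and CDK6, did not share 1 direction. CCND1 read 6.22 in static and 7.60 in stretched cells, which is 1.38 higher (2.60-fold). CCND3 went from 3.76 to 4.91 (1.15), with the static value within the background range. CCND2 read 3.16 and 2.71 (-0.45), within the range on both arrays, and its second, dimmer probe set read 2.57 and 2.10. CCND2 was the only one of the 71 genes with more than 1 probe set.

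Among the kinases that D- and E-type cyclins activate, CDK6 stood far from CDK4 and CDK2. CDK6 went from 4.97 to 7.19, a difference of 2.22 (4.66-fold) and the largest of all 63 genes. It ranked 72 from the top among the 10981 named genes past the filter, and 1.55% of the genes of like level (the same of 10 equal bins of mean signal) had a difference as high or higher. Its close relative CDK4, which phosphorylates the same substrates, read 7.94 and 8.17 (0.23). CDK2, the partner of cyclins E and A, read 6.27 and 6.73 (0.46). The values of CDK4 and CDK2 lie within the interquartile range of all genes, and both change sign when the arrays are centred on the reference genes (-0.30 and -0.07). Each other gene at least 1.5-fold higher had a larger share of like-level genes as high or higher, from 3.26% (CDK5RAP1) to 42.25% (TFDP2).

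The E-type cyclins, which activate CDK2 at S phase entry, were both past 1.5-fold as deposited, but only narrowly so for CCNE1. CCNE2 went from 3.53 to 4.46 (0.93), the static value being in the background range. It stood at 0.40, short of 1.5-fold, after centring on reference genes. CCNE1 went from 5.31 to 5.90 (0.59), and stood at 0.15 after quantile normalization and 0.24 after loess. The share of genes of like level as high or higher was 17.47% for CCNE2 and 39.54% for CCNE1.

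The later cyclins showed small differences. CCNA2, of S and G2 phase, read 7.06 and 7.39 (0.33). The mitotic cyclins CCNB1 (7.12 and 7.31, a difference of 0.19) and CCNB2 (6.34 and 6.49, 0.15) lay close to the median difference of all genes, and CCNB3 lay below the level filter (2.22 and 2.06). All 3 that passed the filter had a negative difference after centring on reference genes, where the median of all named genes past the filter was -0.33. CDKN3, a phosphatase that acts on CDKs and is abundant towards mitosis, read 7.71 and 7.61 (-0.10).

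Of the CDC25 phosphatases, CDC25A alone was past 1.5-fold. CDC25A, which activates CDK2 at the G1/S boundary, went from 3.37 to 4.71 (1.34, 2.53-fold), with the static value within the background range. CDC25B read 8.59 and 9.01 (0.42). CDC25C, which acts at mitotic entry, read 4.21 and 4.45 (0.24). When the genes were set together by textbook phase, a grouping made after the values were seen, 6 of the 9 G1 and S entry genes past the filter (D and E cyclins, CDK2, CDK4, CDK6 and CDC25A) were at least 1.5-fold higher (27.7% of all named genes past the filter were), with a median difference of 0.93 and a range from -0.45 to 2.22. Of those 6, CCND3, CCNE2 and CDC25A had their static value in the background range, where gains past 1.5-fold were common among all genes (78.4% of those with only the static value there). Of the 6 S, G2 and M genes past the filter (CCNA2, CCNB1, CCNB2, CDC25B, CDC25C and CDKN3), 0 were past 1.5-fold in either direction (27.7% of all genes were higher and 8.90% lower), and their median was 0.22 with a range from -0.10 to 0.42. After loess the medians were 0.77 and -0.06 (0.04 for all named genes past the filter). After reference centring they were 0.40 and -0.32 (-0.33 for all). The cyclin gene CCNF, at least 1.5-fold higher (1.56), was placed in neither group, so the contrast depends on which genes were put in each.

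**Figure D2:**
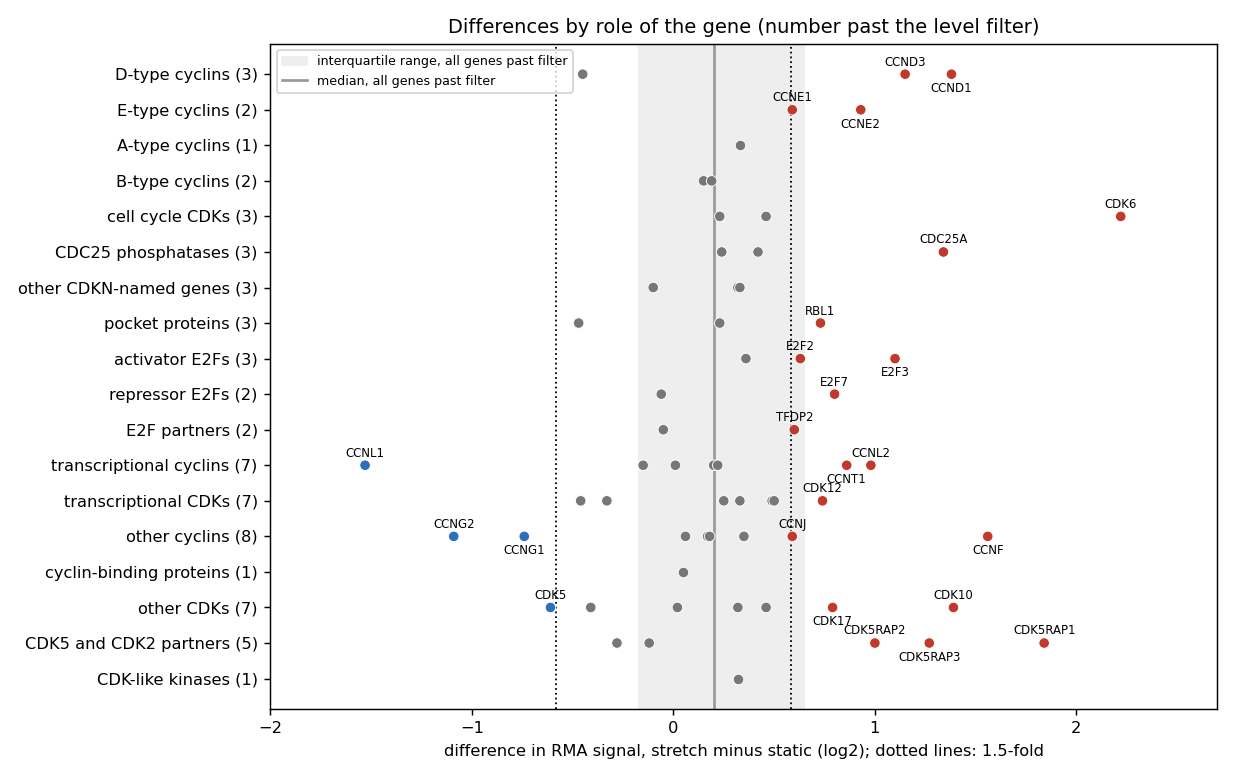
Difference in RMA signal between the arrays (stretch minus static, log2, x axis) of the 63 genes past the level filter, by role (y axis, number of genes in brackets); red and blue points are at least 1.5-fold higher and lower (dotted lines), and the grey band is the interquartile range of all named genes past the filter. CDK6 (2.22) lies far to the right of the other cell cycle CDKs, the B-type cyclins sit near the grey line at 0.20, and CCNL1 (-1.53) and CCNL2 (0.98) lie on opposite sides.

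Inhibitor genes were sparsely measured. CDKN2A, which encodes p16 and, in another reading frame, the p53-stabilising protein ARF, read 1.96 and 2.05, within the background range and below the level filter on both arrays. The antisense RNAs of that locus, CDKN2A-AS1 (2.06 and 2.30) and CDKN2B-AS1 (2.0 and 1.47), lay below the filter too. CDKN2AIP, which binds the ARF product of the CDKN2A locus, read 3.98 and 4.31 (0.33), in the background range on both arrays. Its paralog CDKN2AIPNL read 5.41 and 5.73 (0.32), above the bound on both. The CIP/KIP inhibitors CDKN1A, CDKN1B and CDKN1C and the INK4 inhibitors CDKN2B, CDKN2C and CDKN2D are not among the named probe sets and were not analysed here. The same holds for CCNA1, CDK3, E2F4, E2F5, E2F6 and TFDP3.

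In the retinoblastoma family, which holds E2F factors in check, RBL1 alone was past 1.5-fold. RB1 read 6.86 in static and 6.39 in stretched cells (-0.47), and 6.28% of genes of like level had a difference as low or lower. RBL1, the relative p107, went from 5.72 to 6.45 (0.73, and 0.38 after loess), and 32.15% of genes of like level were as high or higher. RBL2, the relative p130 that forms the repressive DREAM complex in resting cells, read 5.67 and 5.90 (0.23).

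Of the activator E2F factors, E2F3 had the largest difference. E2F3 went from 4.50 to 5.60 (1.10, 2.14-fold) and E2F2 from 3.82 to 4.45 (0.63), the latter from within the background range, whereas E2F1 read 5.16 and 5.52 (0.36). E2F7 and E2F8 are related repressors that are themselves E2F targets. E2F7 went from 4.34 to 5.14 (0.80), while E2F8 read 5.98 and 5.92 (-0.06). Of the TFDP proteins, which dimerise with E2F factors on DNA, TFDP2 went from 4.74 to 5.34 (0.60) and TFDP1 read 5.46 and 5.41 (-0.05). E2F1, TFDP1 and E2F8 thus lay within the interquartile range of all genes, and E2F1 stood at -0.17 after centring on reference genes. The share of genes of like level with a difference as high or higher was 16.95% for E2F3 and 30.83% for E2F2. It was 26.93% for E2F7 and 42.25% for TFDP2.

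Several of these genes are known E2F targets themselves, so RefSeq promoter windows (GRCh38.p14, 250 bases before to 50 after each start) were searched on both strands for the E2F letters TTTCCCGC, TTTCGCGC, TTTGCCGC or TTTGGCGC. Windows were found for 65 of the 71 genes, matched by gene identifier; CCND1, CCND2, CCNE2, CDK2, CDKN2A-AS1 and E2F8 had none. Of the 65, 10 (15.4%) held the letters in at least 1 window, against 3.99% of 27305 genes and 3.31% of 35116 windows. Of the genes at least 1.5-fold higher, 5 of 19 held them (CDC25A, CDK10, E2F2, E2F3 and RBL1), of the lower genes 0 of 4, and of the genes between 4 of 35 (E2F1, TFDP1, CDK19 and CCNO). The last of the 10 was CDKN2B-AS1, below the level filter. The 120 bases before the start are shown for the 5 higher genes and for E2F1, which lies between, because the same letters stand near the start of genes on both sides of the 1.5-fold line. Capitals mark the E2F letters or their reverse complement.
CDC25A: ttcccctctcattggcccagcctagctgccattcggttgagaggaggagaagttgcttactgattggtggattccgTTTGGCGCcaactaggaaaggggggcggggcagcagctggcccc
E2F3: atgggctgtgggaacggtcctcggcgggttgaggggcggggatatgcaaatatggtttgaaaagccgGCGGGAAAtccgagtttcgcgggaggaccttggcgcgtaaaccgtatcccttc
E2F2: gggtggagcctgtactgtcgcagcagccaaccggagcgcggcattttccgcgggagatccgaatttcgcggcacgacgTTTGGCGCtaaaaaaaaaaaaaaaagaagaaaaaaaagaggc
RBL1: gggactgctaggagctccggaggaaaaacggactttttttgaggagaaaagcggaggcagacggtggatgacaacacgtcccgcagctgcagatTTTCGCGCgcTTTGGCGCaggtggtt
CDK10: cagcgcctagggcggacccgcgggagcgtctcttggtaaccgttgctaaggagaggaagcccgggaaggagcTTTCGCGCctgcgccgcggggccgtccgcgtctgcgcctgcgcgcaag
E2F1: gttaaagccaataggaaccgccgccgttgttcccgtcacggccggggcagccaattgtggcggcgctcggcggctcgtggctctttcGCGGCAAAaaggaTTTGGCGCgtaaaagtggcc

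These stretches lie at chr3:48188418-48188537 (CDC25A, minus strand), chr6:20401759-20401878 (E2F3, plus), chr1:23531234-23531353 (E2F2, minus), chr20:37095998-37096117 (RBL1, minus), chr16:89686569-89686688 (CDK10, plus) and chr20:33686386-33686505 (E2F1, minus). The match begins 44 bases before the start in CDC25A, 53 in E2F3, 42 in E2F2 and 48 in CDK10. RBL1 and E2F1 each hold a pair of matches, 26 and 16 bases before the start in RBL1 and 33 and 20 in E2F1. E2F1 thus carries as many matches as RBL1, with a difference of 0.36 against 0.73. A match is a run of letters and was not tested for binding.

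The CHR element, TTTGAA, marks many promoters of genes expressed in G2 and mitosis, and none of its matches here overlapped an E2F match. On either strand it was present in 14 of the 65 genes (21.5%), against 18.2% of all genes and 15.2% of windows. The genes at least 1.5-fold higher held it in 4 of 19 cases (21.1%, CCNF, E2F3, CDK5RAP2 and TFDP2) and the genes between in 9 of 35 (25.7%). In E2F3 it begins 65 bases before the start and stands in small letters in the stretch above. The element is shown for CCNB2 and CDC25C, whose differences were 0.15 and 0.24, as examples, with the 6 letters in capitals.
CCNB2: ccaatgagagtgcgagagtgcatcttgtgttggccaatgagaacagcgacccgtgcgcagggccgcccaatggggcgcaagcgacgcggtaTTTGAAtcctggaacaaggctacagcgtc
CDC25C: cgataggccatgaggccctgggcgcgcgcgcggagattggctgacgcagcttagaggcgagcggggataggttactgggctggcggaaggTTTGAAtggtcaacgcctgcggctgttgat

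The CCNB2 stretch lies at chr15:59105026-59105145 on the plus strand and that of CDC25C at chr5:138331805-138331924 on the minus strand, with the match beginning 29 and 30 bases before the start. The letters GGAATG, bound by TEAD factors that work with YAP, were in 6 of the 65 genes (9.23%, against 16.7% of all genes), and TGAGTCA, an AP-1 site, in 1, CDK15 (1.54%, against 6.05%). The CDK6 windows held none of these 4 motifs.

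The transcriptional cyclins held the largest difference downwards of all 63 genes. CCNL1, encoding cyclin L1, which pairs with CDK11 in pre-mRNA splicing, went from 8.13 to 6.60 (-1.53, 2.89-fold lower). It ranked 54 from the bottom among 10981 genes, and 0.73% of genes of like level had a difference as low or lower. Its paralog CCNL2 moved the other way, from 4.65 to 5.63 (0.98), and 22.57% of genes of like level were as high or higher. The probe set of their kinase gene CDK11A read 2.33 and 2.82, within the background range, and its signal is uncertain because CDK11B is a near-identical copy.

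P-TEFb, the kinase that releases paused RNA polymerase II, is made of CDK9 and cyclin T. CCNT1 went from 6.14 to 7.0 (0.86), while CCNT2 read 5.92 and 6.14 (0.22) and CDK9 read 6.21 and 6.54 (0.33). CDK12, which phosphorylates the polymerase tail and supports long and DNA repair genes, went from 6.52 to 7.26 (0.74). Its cyclin partner CCNK read 6.72 and 6.73 (0.01), and the related CDK13 read 8.01 and 8.26 (0.25). In these complexes 1 subunit was thus past 1.5-fold and the others were within the interquartile range of all genes. The share of genes of like level as high or higher was 22.2% for CCNT1 and 29.39% for CDK12.

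The Mediator kinase genes lay below 0. CDK8 read 6.35 and 6.02 (-0.33), its paralog CDK19 5.91 and 5.45 (-0.46), and their partner CCNC 4.17 and 4.02 (-0.15, within the background range on both arrays). No scaling other than centring on the array medians raised these values, which were -0.68 for CDK8, -0.82 for CDK19 and -0.33 for CCNC after loess. CDK7 and CCNH, which form the CDK-activating kinase that also serves transcription factor TFIIH, stood at 0.50 (6.20 and 6.70) and 0.20 (6.66 and 6.86). Over the 7 transcriptional cyclins the median was 0.20 with 2 at least 1.5-fold higher and 1 lower, and over the 7 transcriptional CDKs it was 0.33 with 1 higher and 0 lower. Of all named genes past the filter, 27.7% were higher and 8.90% lower, with a median of 0.20.

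**Figure D3:**
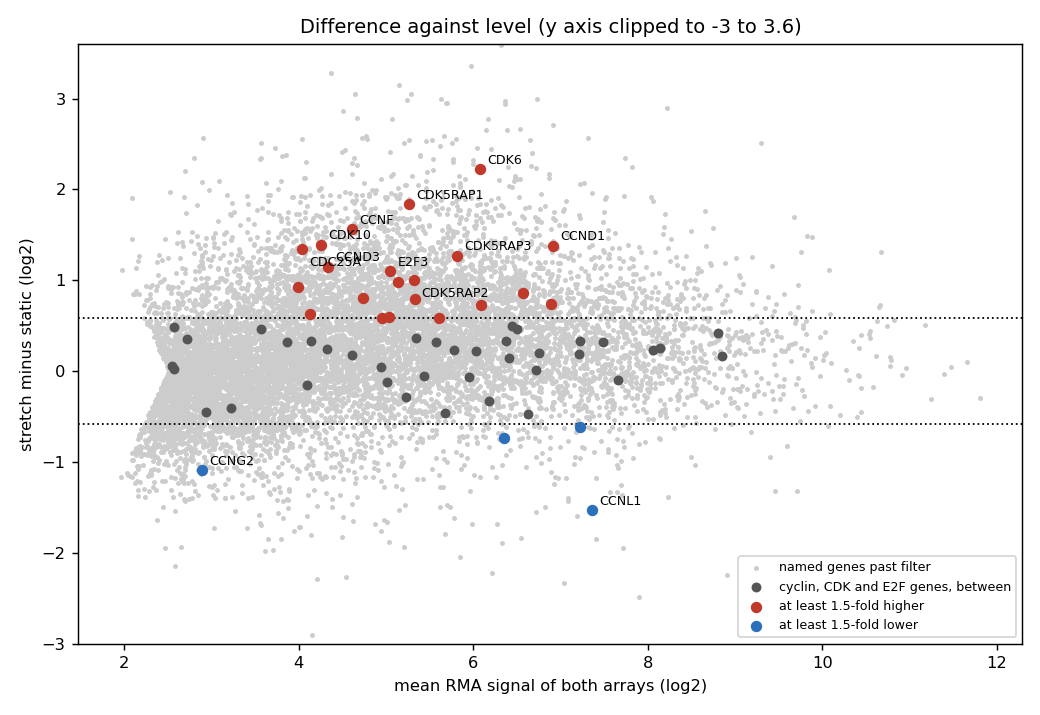
Difference between the arrays (stretch minus static, log2, y axis) against the mean RMA signal of both arrays (log2, x axis) for all named genes past the level filter (grey) and the 63 genes described here (coloured, with names at 2-fold or more); dotted lines mark 1.5-fold. CDK6 at 2.22 and CCNL1 at -1.53 lie near the edges of the grey cloud at their level, while most others lie inside it.

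Among the remaining cyclins, cyclin F stood highest, and both G cyclins were past 1.5-fold lower. CCNF, the F-box protein that directs substrates to a ubiquitin ligase, went from 3.83 to 5.39 (1.56, 2.95-fold), with the static value within the background range. CCNG1, a p53 target, went from 6.72 to 5.98 (-0.74). CCNG2, which is linked to cell cycle exit, went from 3.44 to 2.35 (-1.09), within the background range on both arrays. CCNG2 passed the level filter through its static value alone, and its difference is given as a description. For CCNG1, above the background bound on both arrays, 3.28% of genes of like level had a difference as low or lower. CCNJ went from 4.66 to 5.25 (0.59, and 0.20 after quantile normalization), and 38.94% of genes of like level were as high or higher. The other 4 that passed the filter, CCNI, CCNO, CCNP and CCNY, had differences between 0.06 and 0.35, with CCNO and CCNP in the background range on both arrays. CCNDBP1, which binds D-type cyclins, read 4.92 and 4.97 (0.05).

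CDK5, an atypical CDK best known from neurons, differed in sign from the genes named for associating with its activator. CDK5 itself went from 7.53 to 6.92 (-0.61), and 4.75% of genes of like level were as low or lower. CDK5RAP1, a mitochondrial RNA-modifying enzyme, went from 4.35 to 6.19 (1.84, 3.58-fold, rank 185 from the top). CDK5RAP3, an adaptor of protein UFMylation, went from 5.18 to 6.45 (1.27), and CDK5RAP2, a centrosomal protein, from 4.82 to 5.82 (1.0). These 3 share a name and not a sequence family. Among genes of like level, 3.26% (CDK5RAP1), 11.51% (CDK5RAP3) and 21.76% (CDK5RAP2) were as high or higher. The CDK2-binding proteins CDK2AP1 (-0.28) and CDK2AP2 (-0.12) lay below 0.

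Of the other CDKs, CDK10 and CDK17 were past 1.5-fold upwards. CDK10, which pairs with cyclin Q, went from 3.56 to 4.95 (1.39, 2.62-fold), the static value being in the background range. CDK17, of the PCTAIRE subfamily, went from 4.94 to 5.73 (0.79), and 31.73% of genes of like level were as high or higher. Its relatives CDK16 (7.33 and 7.65, a difference of 0.32) and CDK18 (3.43 and 3.02, -0.41) did not reach 1.5-fold, and CDK18 lay in the background range on both arrays. CDK14 and CDK20, both in the background range on each array, stood at 0.02 and 0.46. CDK15 and the CDK-like genes CDKL2, CDKL3 and CDKL4 lay below the level filter, and CDKL1 stood at 0.32 within the background range.

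Signal strength bore on the counts. Of the 21 higher genes, 6 had their static value in the background range (CCND3, CCNE2, CCNF, CDC25A, CDK10 and E2F2), and of the 7 genes here with that property all but CDC25C were past 1.5-fold. Among all named genes with only the static value in that range, 78.4% were at least 1.5-fold higher, since a gene has to gain signal to leave the range. So close to the background, these differences can understate or overstate a change in RNA, which was not tested.

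**Figure D4:**
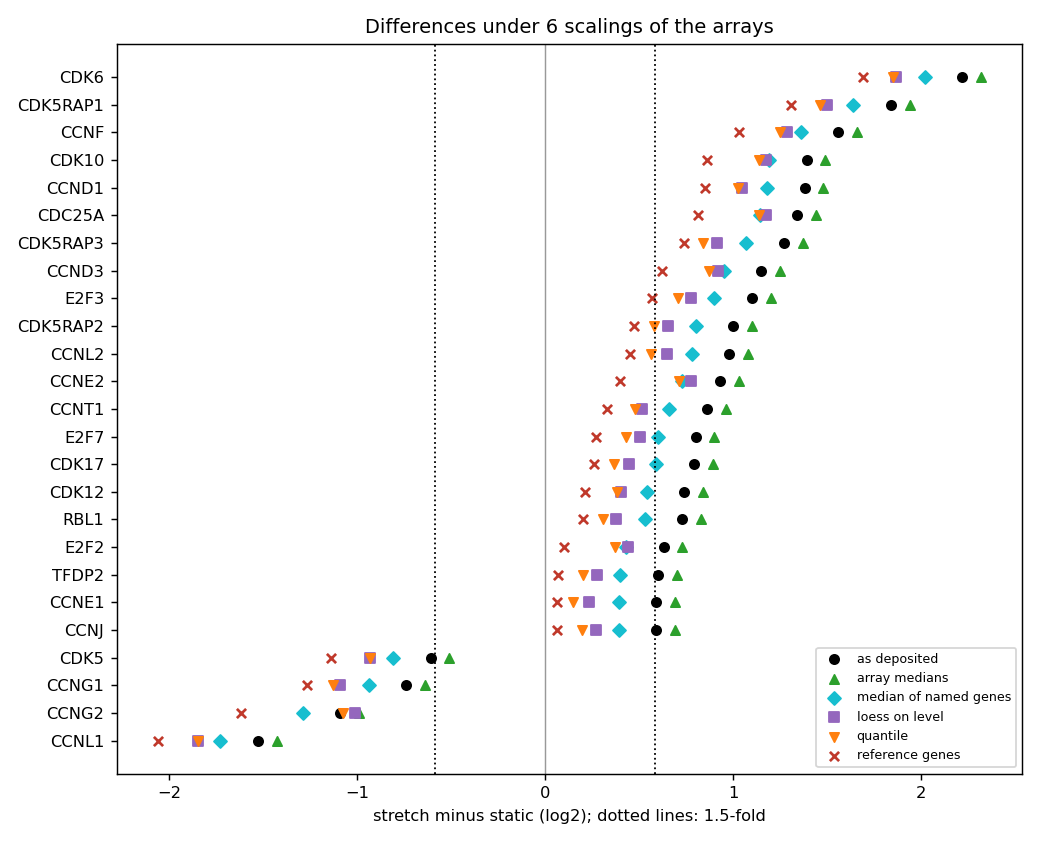
Difference between the arrays (stretch minus static, log2, x axis) of the 25 genes past 1.5-fold under 6 scalings (symbols), with dotted lines at 1.5-fold. No gene crosses 0, but CCNE1, CCNJ, TFDP2 and E2F2 lie between 0.06 and 0.10 after centring on reference genes.

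Genes that work with or downstream of these factors were read from 5 lists. Of the E2F target genes of the G1/S transition, 24 were measured by name (36 listed), and 16 of them (66.7%) were at least 1.5-fold higher and 0 lower, against 27.7% and 8.90% of all genes. The count of 16 was 10 after loess and 7 after reference centring, with 0 lower under both. Their median difference was 0.86, or 0.52 after loess and 0.33 after reference centring. The replication checkpoint adaptor CLSPN (3.71 to 5.21, 1.5), the helicase subunit gene GINS4 (3.48 to 4.95, 1.47), the epigenetic regulator UHRF1 (4.67 to 5.97, 1.30) and the helicase subunit gene MCM7 (6.40 to 7.67, 1.27) had the largest differences. The static values of CLSPN and GINS4 lay in the background range, so their place in this order is not firm. The higher replication genes were known from these arrays before the list was drawn up, so the count is a description.

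The other 4 lists had shares of 12.5% to 33.3% higher, against 27.7% of all genes. After reference centring the median of each was below 0, from -0.345 to -0.15, as was that of all named genes past the filter (-0.33). DREAM and MuvB genes with their activator partners had 2 of 8 higher and 0 lower, with a median of 0.38. Of these, MYBL2, encoding B-MYB, which turns the complex into an activator, went from 5.42 to 7.51 (2.09), LIN37 stood at 0.61 and FOXM1, the mitotic activator, read 6.17 and 6.22 (0.05). CDK-modifying kinases and small partners had 3 of 9 higher and 0 lower (median 0.34), namely the kinase co-chaperone CDC37 (1.40), SERTAD2 (0.86) and CABLES2 (0.75). WEE1, the inhibitory kinase of CDKs, stood at 0.34. Under reference centring MYBL2 and CDC37 were the only ones of the DREAM, MuvB and CDK-modifying genes still at least 1.5-fold higher (1.56 and 0.87).

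Genes of cyclin and inhibitor turnover had 7 of 23 members higher (30.4%) and 1 lower, against 27.7% and 8.90% of all genes, with a median of 0.34. After reference centring 1 was higher and 4 were lower, and the median was -0.19 (-0.33 for all named genes past the filter). The anaphase-promoting complex subunits ANAPC1 (1.19), ANAPC7 (1.09) and CDC23 (0.90) were the highest, and ANAPC11, its RING subunit, stood at -0.80. Among the 7, FBXO5 (3.23 and 3.89) and ANAPC10 (3.59 and 4.19) lay in the background range on both arrays. In total 5 of the 23 turnover genes did. Partners of P-TEFb and of the CDK8 module had 1 of 8 higher and 1 lower, with a median of 0.19. MEPCE, which caps the inhibitory 7SK RNA, stood at 0.76 and HEXIM1, the inhibitor of P-TEFb, at -0.73 (6.20 to 5.47). After reference centring 0 of the 8 were higher and 2 lower.

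**Figure D5:**
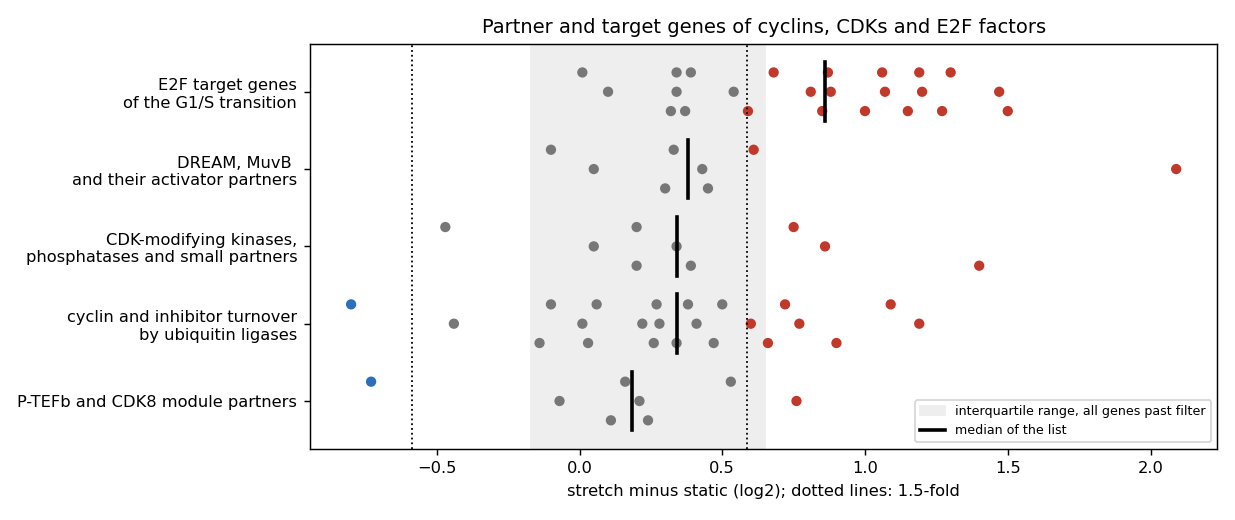
Difference between the arrays (stretch minus static, log2, x axis) of the genes past the level filter in 5 lists of partners and targets (y axis; points are spread vertically for legibility), with each list's median as a black bar and the interquartile range of all named genes as a grey band. The E2F target list has its median at 0.86, to the right of the band (0.33 after reference centring), and MYBL2 (2.09) lies alone in the DREAM and MuvB list.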

How the data were processed

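RNA of A549 cells in static and in stretch culture was measured on Affymetrix arrays, 1 for each condition. The deposited table holds log2 values of 53617 probe sets, which are RMA values per the submitters' processing notes; the software, chip definition and any step between arrays are not given in the sources used here. That the scale is log2 follows from the range of the values. The deposited column medians were 2.57 (static) and 2.47 (stretch).

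Groups came from the source names. The platform's annotation table named 16098 probe sets, each with 1 symbol; the other 37519 are unnamed here. The symbols of all 71 genes described equal those of RefSeq (GRCh38.p14) for the same gene identifier. Where a gene had several probe sets, the brightest on average was used. Counts used genes at 2.52 or above on at least 1 array. Differences were stretch minus static, counted at 1.5-fold and 2-fold. With 1 array per group no test was made and no p is given; the number of arrays limits the precision. Scalings tried were array medians, the median of named genes (chosen after seeing the data), quantile, loess on level (span 0.3) and 13 measured reference genes, and for these the genes past the filter were held fixed. The functions were tested on simulated data with differences far past 1.5-fold and no shift between the arrays. That check does not bear on calls near 1.5-fold or on the choice of scaling. Python 3.11.15 with numpy 2.4.6, pandas 2.3.3, scipy 1.17.1, statsmodels 0.14.6 and matplotlib 3.10.9 was used.

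The genes and lists were chosen with earlier results of these data known. Named were all genes past 1.5-fold, the D, E, A and B cyclins, CDK2, CDK4, CDK6, and the CDKN1, CDKN2, CDC25, E2F, TFDP and retinoblastoma family genes, and up to 4 genes of each partner list with the largest differences; the others are examples chosen after their values were seen.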

Additional observations from a re-analysis of the deposited data

How the results depend on the processing

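With 1 array per group, no spread between replicates exists, so a median was counted as moved when it changed by over 0.1 and a count when it changed by over 1.5 times. As deposited, 21 genes were at least 1.5-fold higher, 4 were lower and the median difference was 0.32. After quantile normalization these were 10, 8 and 0.035, after loess on level 13, 8 and 0.014, and after centring on reference genes 8, 14 and -0.21, where the median changed sign. The median of all named genes past the filter was -0.01, 0.04 and -0.33 under these scalings, in that order, and 0.20 as deposited. Shares of all genes past 1.5-fold were not counted under them, so the changed counts cannot be read as particular to the 63 genes. After centring on the median of named genes, 8 of the 63 were lower and their median was 0.12, with 15 higher. At a fold threshold of 2, 10 were higher and 2 lower. Median centring, the mean of all probe sets, no level filter and a level filter at the upper quartile changed the counts by less than 1.5 times and the median by no more than 0.1. The single genes past 1.5-fold kept their sign under the 6 scaling and probe set alternatives run for them. No paired analysis was possible because each group has 1 array, and no replicate could be left out. RMA values carry no detection call, and 11 of the 63 genes were in the background range on each array.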
